A study of Mus musculus with 11 samples.

Results

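The genes of the constitutive proteasome were followed in CD11b-positive myeloid cells taken out of irradiated tumours in mice. They were chosen by name and level: symbols that begin with Psma, Psmb, Psmc or Psmd and a digit, without Psmb8, Psmb9 and Psmb10, without symbols that hold "-ps", and with a level that averages 1 RPKM or more across the 11 libraries. RPKM counts reads relative to transcript length and to the mapped reads of the library, which gives a level that can be compared between genes of different length. The rule found 35 genes of the 10557 at that level and of 22068 symbols in the files. Of these, 14 encode the core particle (Psma and Psmb) and 21 have a regulatory particle name (Psmc and Psmd). The name rule alone fits 37 symbols, and the level minimum dropped 2 of them. Psma8, the testis form of an alpha subunit, had a mean of 0.547 RPKM over the libraries, and Psmb11, the thymus form of a beta subunit, had 0.0064 RPKM. The member just inside the minimum was Psmc3ip, which is named for binding an ATPase of the base and is known as a cofactor of meiotic recombination, not as a proteasome subunit.

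The proteasome is the protease that degrades proteins tagged with ubiquitin. Its core particle is a barrel of stacked rings, with alpha rings outside that form the gate and beta rings inside that hold the catalytic sites. The regulatory particle caps the barrel: its lid and base bind and strip ubiquitin, and a ring of ATPases unfolds the substrate and feeds it through the gate. In immune cells exposed to interferon, the catalytic beta subunits are replaced by those of the immunoproteasome, which shapes the peptides presented to T cells.

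Tumours grew in 3 kinds of mice: wild type (WT, 3 libraries), TLR9-/- (TLR9KO, 4 libraries) or STAT3-/- (STAT3KO, 4 libraries), the last by MxCre deletion of a floxed Stat3 gene. Every group had the C57BL/6 background, and every tumour was implanted under the skin, irradiated with 15 Gy and taken on day 4, so the data hold no unirradiated group. The CD11b-positive cells were enriched with magnetic beads and not cultured. MxCre is switched on by interferon and acts in many cell types beside myeloid cells. The tumour line is not given in the labels. The labels do not say whether replicates are separate animals. The p-values thus reflect only how these samples vary, and that variation may be technical.

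The RPKM values of a library summed to between 390642.5 and 450627.3, and log2(RPKM + 1) values correlated across genes at 0.959 to 0.993 within groups and at 0.932 to 0.976 between groups. RPKM values give no read totals, so the counting error behind each value is unknown, and how reads shared with processed pseudogenes of these genes were counted was not given in the sources used here. The targeted genes were low where the labels say so: Stat3 had a mean of 18.2 ± 1.85 RPKM (SD, n = 4) in STAT3KO against 73.1 ± 2.78 RPKM (n = 3) in WT, and Tlr9 had 5.77 ± 1.72 RPKM (n = 4) in TLR9KO against 30.3 ± 10.6 RPKM in WT. All 6 markers of CD11b-positive cells were above 1 RPKM on average, and their summed RPKM was 2599 to 2778 in WT, 2352 to 2598 in TLR9KO and 2731 to 3006 in STAT3KO. The sum hides markers that moved apart. In STAT3KO the means were 72.4% of WT for Itgam, which encodes CD11b, 80.1% for Itgb2, 84.65% for Csf1r, 96.9% for Fcgr3, 111.6% for Ptprc and 135.6% for Cd68. For these genes in the same order, the TLR9KO means were 80.6%, 90.1%, 78.4%, 108.6%, 156.2% and 86.1% of WT. The 5 melanocyte markers were all above 1 RPKM on average too, with sums of 423 to 1368 RPKM in WT, 462 to 1337 in TLR9KO and 796 to 1225 in STAT3KO. They moved apart as well. In STAT3KO the means were 149.1% of WT for Tyr, 148.0% for Dct, 97.7% for Tyrp1, 81.0% for Mlana and 70.0% for Pmel. The TLR9KO means in the same order were 122.9%, 88.9%, 97.7%, 126.1% and 73.2%. Of the 5 erythroid markers, 4 were above 1 RPKM on average, and the sum ranged over 42.6 to 168.8 RPKM in WT, 0.56 to 3.31 in TLR9KO and 2.72 to 49.6 in STAT3KO. Of the 4 fibroblast markers, 3 were above 1 RPKM on average, with sums of 1.33 to 3.31, 8.34 to 36.8 and 11.9 to 26.3 RPKM. The 5 T and NK cell markers summed to 1.94 to 11.2, 0.43 to 4.80 and 0.47 to 3.62 RPKM, and the 3 endothelial markers to 7.80 to 22.01, 6.71 to 15.1 and 4.52 to 8.01 RPKM. The 3 B cell markers and the 3 epithelial markers were each under 1 RPKM in every library. The part of the cell types that differed between groups in the proteasome differences was not tested, and fewer cells of a type and less RNA per cell cannot be told apart in such bulk samples. TLR9KO replicate 3 had the highest value of its group for 26 of the 35 members, and for 14 of 14 core particle genes.

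In the deposited values the proteasome genes together took up more of the measured RNA in both knockouts than in WT. Their summed RPKM was 0.536% ± 0.0097 (SD, n = 3) of the library sum in WT, 0.589% ± 0.0233 (n = 4) in TLR9KO and 0.618% ± 0.0104 (n = 4) in STAT3KO. The WT libraries lay between 0.527% and 0.546%, below every TLR9KO library (0.558% to 0.613%) and every STAT3KO library (0.603% to 0.627%). These shares were not calculated with the GC content and length of the transcripts removed.

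Against WT, STAT3KO libraries had higher levels of 24 of the 35 members and lower levels of 2. These calls come from limma fitted to log2(RPKM + 1) of all 10557 genes, two-sided, with Benjamini-Hochberg adjusted p under 0.05. Over all genes tested, 29.2% were higher and 14.8% were lower in this comparison, or 44.0% in either direction. The libraries of the groups did not overlap for 27 members with STAT3KO higher and 2 with STAT3KO lower, where 30.8% and 16.9% of all genes were so. By particle, 12 of 14 core particle genes were higher and 0 lower, and at an unadjusted p under 0.05 limma also found 0 lower. Of the regulatory particle genes, 12 of 21 were higher and 2 lower. The median log2 difference was 0.56 over the core particle genes, 0.23 over the regulatory particle genes and 0.09 over all genes tested. After scaling each library by the median ratio of its genes, the calls over all genes moved from 3083 higher and 1565 lower to 2338 higher and 2206 lower, and those of the members to 19 higher and 2 lower.

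TLR9KO libraries had higher levels than WT of 14 members and lower levels of 2, where 20.0% of all genes tested were higher and 10.6% lower, or 30.6% in either direction. The groups did not overlap for 13 members with TLR9KO higher and 2 with TLR9KO lower, where 22.8% and 13.3% of all genes were so. By particle, 9 of 14 core genes were higher and 0 lower (0 also at an unadjusted p under 0.05 in limma), against 5 of 21 regulatory particle genes higher and 2 lower. The medians were 0.41 for the core particle, 0.07 for the regulatory particle and 0.04 for all genes tested. With the median-ratio scaling, 1780 genes were higher and 1504 lower in place of 2107 and 1122, and 12 members were higher. Without WT replicate 1 the count was 9 higher and 0 lower. Both comparisons with WT share the 3 WT libraries, so their values are given side by side and not as independent results.

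STAT3KO libraries had higher levels than TLR9KO of 9 members and lower levels of 0, where 13.4% of all genes tested were higher and 9.46% lower, or 22.8% in either direction. The groups did not overlap for 11 members with STAT3KO higher and 0 with STAT3KO lower, where 16.4% and 10.6% of all genes were so. In limma, 15 members were higher and 0 lower at an unadjusted p under 0.05. The 9 were Psmb5 and Psmb6 of the core particle, and Psmc1, Psmc3, Psmc3ip, Psmd3, Psmd4, Psmd7 and Psmd9. With the median-ratio scaling the calls over all genes moved from 1410 higher and 999 lower to 1007 higher and 1193 lower, and 3 members were higher. The count was also 3 without TLR9KO replicate 2, without STAT3KO replicate 1 or without STAT3KO replicate 2, 4 without TLR9KO replicate 1 or 4, and 5 without STAT3KO replicate 3.

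**Figure D1:**
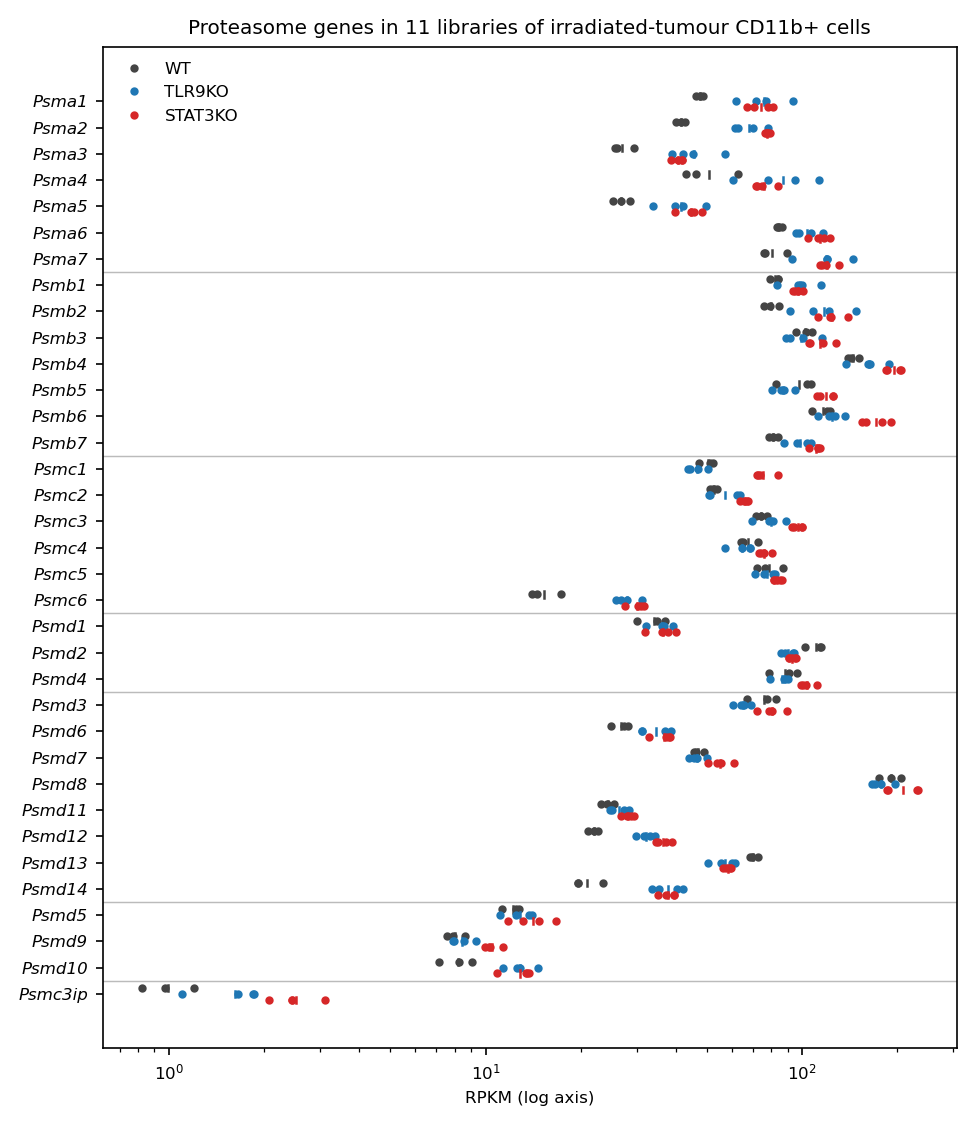
RPKM (log axis) of the 35 proteasome genes in each library, 1 point a library and a short bar at the group mean, with grey lines between the alpha ring, beta ring, base ATPases, other base subunits, lid, chaperones and Psmc3ip. All 7 alpha ring genes have every STAT3KO point (red) above every WT point (grey), whereas Psmd2 and Psmd13 have both knockouts below WT.

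The members covered a wide range of levels in WT. The highest were Psmd8, a lid subunit, at 190.2 ± 15.5 RPKM (SD, n = 3), then Psmb4, a structural beta subunit, at 145 ± 5.68 RPKM and Psmb6 at 116 ± 8.04 RPKM. The lowest were Psmc3ip at 0.997 ± 0.191 RPKM, Psmd9 at 8.02 ± 0.538 RPKM and Psmd10 at 8.16 ± 0.984 RPKM, where the last pair did not differ beyond their spread. The 7 beta ring genes lay within a narrow band of WT means, from 79.8 RPKM (Psmb2) to 145 RPKM (Psmb4). The alpha ring spanned 26.9 RPKM (Psma5) to 84.4 RPKM (Psma6), the 6 ATPases 15.3 RPKM (Psmc6) to 78.5 RPKM (Psmc5), and the 8 lid genes 20.9 RPKM (Psmd14) to 190 RPKM (Psmd8). In the base ATPases the highest mean was 5.14 times the lowest in WT, 2.84 times in TLR9KO and 3.21 times in STAT3KO, with Psmc6 the lowest in each group.

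The promoters of 5 members are shown because, in the deposited values, these genes differ most clearly between the groups or differ in direction. There, Psma2, Psmc6 and Psmd14 were higher in both knockouts, Psmc1 was higher in STAT3KO, and Psmd13 was lower in both. With the GC content and length of the transcripts removed, the TLR9KO calls of Psma2 and Psmc6 were lost. The sequences are RefSeq promoters of assembly GRCm38.p6, from 250 bases before to 50 bases after the gene start, 5′ to 3′ on the gene's strand, which is the plus strand for all 5. This build is not the mm9 build of the files, and 29 of the 35 members had an entry. Capitals mark letters of 4 motifs that were searched on both strands: CCAAT, the CCAAT box; CCGGAAG, bound by ETS factors; TGACNNNGC, the core of the antioxidant response element; and TTCNNNGAA, bound by STAT factors. The windows are chr13:14612992-14613291 for Psma2, chr14:45329574-45329873 for Psmc6, chr2:61711444-61711743 for Psmd14, chr12:100109952-100110251 for Psmc1 and chr7:140882144-140882443 for Psmd13.
Psma2: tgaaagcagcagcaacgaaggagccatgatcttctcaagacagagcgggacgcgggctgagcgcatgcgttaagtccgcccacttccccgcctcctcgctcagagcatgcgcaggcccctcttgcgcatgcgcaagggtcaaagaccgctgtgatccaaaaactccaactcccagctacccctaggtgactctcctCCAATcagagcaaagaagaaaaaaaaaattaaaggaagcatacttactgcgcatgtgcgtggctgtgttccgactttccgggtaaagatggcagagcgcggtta
Psmc6: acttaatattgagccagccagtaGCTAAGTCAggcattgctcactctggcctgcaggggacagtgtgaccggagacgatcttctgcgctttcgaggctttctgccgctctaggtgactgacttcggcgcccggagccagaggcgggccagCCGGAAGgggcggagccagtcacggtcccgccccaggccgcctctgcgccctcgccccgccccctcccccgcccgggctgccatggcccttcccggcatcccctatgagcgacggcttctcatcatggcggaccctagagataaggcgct
Psmd14: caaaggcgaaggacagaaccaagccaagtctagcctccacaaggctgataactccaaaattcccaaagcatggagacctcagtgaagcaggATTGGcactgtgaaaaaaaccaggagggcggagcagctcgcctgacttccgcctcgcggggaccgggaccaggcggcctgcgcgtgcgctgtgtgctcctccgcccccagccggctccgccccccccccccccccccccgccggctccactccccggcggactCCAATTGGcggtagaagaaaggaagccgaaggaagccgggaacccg
Psmc1: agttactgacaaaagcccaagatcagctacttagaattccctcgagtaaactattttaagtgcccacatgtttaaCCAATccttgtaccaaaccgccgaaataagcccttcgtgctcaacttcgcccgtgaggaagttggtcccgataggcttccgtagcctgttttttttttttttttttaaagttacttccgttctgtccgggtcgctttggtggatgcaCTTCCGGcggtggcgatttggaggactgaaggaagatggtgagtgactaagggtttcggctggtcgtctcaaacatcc
Psmd13: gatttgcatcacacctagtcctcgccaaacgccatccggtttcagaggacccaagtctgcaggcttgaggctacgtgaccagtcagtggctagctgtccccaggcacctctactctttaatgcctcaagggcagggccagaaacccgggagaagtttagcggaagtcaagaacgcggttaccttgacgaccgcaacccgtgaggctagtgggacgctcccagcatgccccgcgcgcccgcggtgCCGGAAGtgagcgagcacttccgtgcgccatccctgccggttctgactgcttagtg
In Psma2 the capitals are a CCAAT box, in Psmc6 an antioxidant response element core on the minus strand and then an ETS site, and in Psmc1 a CCAAT box and then an ETS site on the minus strand. In Psmd14 they are a CCAAT box on the minus strand and then a pair of CCAAT boxes on opposite strands that overlap, and in Psmd13 an ETS site. The ETS letters were found in 38.7% of the 31 promoters of members, against 18.3% of the 9675 promoters of tested genes and 8.86% of all 32851 promoters of that length. The CCAAT box was in 38.7%, 37.4% and 37.4% in the same order, and the antioxidant response element core in 16.1%, 14.7% and 12.4%. The STAT letters were in 3.23% of the member promoters, in Psmd2, against 6.8% and 8.3%. These are matches of letters, not measured binding.

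In the deposited values the alpha ring, which gates the barrel, had all 7 genes higher in STAT3KO and all 7 higher in TLR9KO than in WT. Of all genes tested, 29.2% and 20.0% were so. With the median-ratio scaling 6 of 7 were higher in each. With GC content and length removed, only Psma2 and Psma5 stayed called in STAT3KO and only Psma5 in TLR9KO. Psma6 was then at -0.12 in both, not called. Psma2 was 39.95, 42.5 and 41.5 RPKM in WT, 62.5, 69.97, 78.1 and 61.5 RPKM in TLR9KO and 77.7, 76.1, 78.97 and 76.6 RPKM in STAT3KO. Every knockout library was above every WT library, and the STAT3KO libraries lay close together. The log2 difference from WT was 0.89 ± 0.09 (SE) in STAT3KO (limma adjusted p = 4.47e-05) and 0.70 ± 0.09 in TLR9KO (adjusted p = 0.000533). Psma5 was 25.4, 26.7 and 28.5 RPKM in WT, 33.9, 42.1, 49.7 and 39.8 RPKM in TLR9KO and 44.7, 48.3, 45.4 and 39.6 RPKM in STAT3KO. Its groups did not overlap with WT either, with differences of 0.70 ± 0.12 (adjusted p = 0.000879) and 0.59 ± 0.12 (adjusted p = 0.00404). 

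Psma1 was 46.4, 48.5 and 47.6 RPKM in WT, 61.6, 76.6, 93.6 and 71.5 RPKM in TLR9KO and 70.3, 67.1, 81.1 and 78.2 RPKM in STAT3KO. Psma3 was 25.7, 29.4 and 26.01 RPKM, 38.8, 45.1, 56.9 and 41.95 RPKM and 41.7, 40.5, 38.6 and 41.8 RPKM in the same order. For both, TLR9KO replicate 3 was the highest of the 11 libraries and each knockout library lay above WT. In limma the TLR9KO difference was 0.65 ± 0.13 for Psma1 (adjusted p = 0.00349) and 0.72 ± 0.12 for Psma3 (adjusted p = 0.00144), and the STAT3KO differences were 0.63 and 0.57. The other alpha genes, Psma4, Psma6 and Psma7, had log2 differences of 0.58, 0.43 and 0.57 in STAT3KO and of 0.74, 0.29 and 0.55 in TLR9KO. Of these, Psma4 had a WT library at 62.9 RPKM (replicate 2) above the lowest TLR9KO library at 60.7 RPKM. Its call in TLR9KO was lost without WT replicate 1 or 3, and in STAT3KO also without STAT3KO replicate 3 or 4. The TLR9KO call of Psma6 was lost in 5 of 11 fits that left out 1 library, among them those without each WT library. Between the knockouts, 0 of 7 alpha genes were called in limma and 1, Psma2, was higher in STAT3KO at an unadjusted p under 0.05.

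The beta ring holds the catalytic subunits Psmb5 (chymotrypsin-like), Psmb6 (caspase-like) and Psmb7 (trypsin-like). In STAT3KO, 5 of its 7 genes were higher than in WT, these catalytic genes, Psmb2 and Psmb4, and 2 of 7, Psmb2 and Psmb7, were higher in TLR9KO, where Psmb2 lost its call without WT replicate 1. The shares of all genes tested that were higher were 29.2% in STAT3KO and 20.0% in TLR9KO. Psmb6 was 119, 107 and 122 RPKM in WT, 112, 122, 137 and 127 RPKM in TLR9KO and 191, 179, 159 and 154 RPKM in STAT3KO. The STAT3KO libraries stood above all others, and the WT and TLR9KO libraries overlapped. The differences were 0.55 ± 0.10 for STAT3KO against WT (limma adjusted p = 0.00161), 0.45 ± 0.09 for STAT3KO against TLR9KO (adjusted p = 0.00776) and 0.09 ± 0.10 for TLR9KO against WT (adjusted p = 0.51).

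Psmb5 was 107, 82.5 and 104 RPKM in WT, 80.4, 85.9, 94.6 and 87.8 RPKM in TLR9KO and 125, 125, 112 and 114 RPKM in STAT3KO. The STAT3KO libraries were again the highest, with WT replicate 1 at 107 RPKM just below them. STAT3KO exceeded TLR9KO by 0.44 ± 0.10 (limma adjusted p = 0.00891) and WT by 0.29 ± 0.10 (adjusted p = 0.0426), and the second call was lost in 7 of 11 fits that left out 1 library. Psmb7 was 78.8, 80.8 and 83.8 RPKM in WT, 87.6, 103, 107 and 96.1 RPKM in TLR9KO and 114, 112, 112 and 105 RPKM in STAT3KO. Both knockouts lay above WT, by 0.45 ± 0.08 in STAT3KO (adjusted p = 0.00148) and by 0.27 ± 0.08 in TLR9KO (adjusted p = 0.0281). The TLR9KO call was lost in 5 of 11 such fits. Psmb1 and Psmb3, structural subunits, were called in no comparison of the deposited values.

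The immunoproteasome subunits that take the places of these catalytic subunits were listed beside them. Psmb8, which replaces Psmb5, was 179.6, 254 and 231 RPKM in WT, 148, 270.3, 389 and 274 RPKM in TLR9KO and 190.2, 253, 273 and 202 RPKM in STAT3KO. The groups overlapped, and TLR9KO held both the lowest and the highest of the 11 libraries. In limma 0 of the 3 immunoproteasome genes were called in any comparison, and 0 at an unadjusted p under 0.05; the medians of their log2 differences were 0.25 for STAT3KO against WT and 0.22 for TLR9KO against WT. The ratio of Psmb9 to Psmb6 was 1.09 ± 0.312 (SD, n = 3) in WT, 1.36 ± 0.421 (n = 4) in TLR9KO and 0.889 ± 0.26 (n = 4) in STAT3KO, and these ranges overlapped. The ratio of Psmb10 to Psmb7 was 1.42 ± 0.187, 1.41 ± 0.473 and 1.28 ± 0.321, and that of Psmb8 to Psmb5 was 2.33 ± 0.703, 3.05 ± 0.928 and 1.94 ± 0.394.

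**Figure D2:**
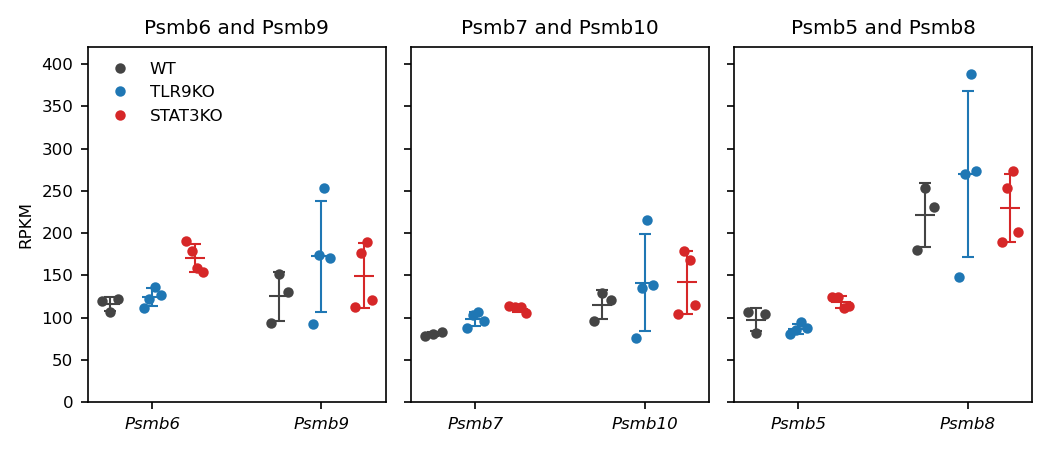
RPKM of the 3 constitutive catalytic genes and of the immunoproteasome genes that replace them, 1 point a library, with the group mean and SD. The constitutive genes have their highest group mean in STAT3KO (Psmb6 mean 171 RPKM against 116 RPKM in WT), while the immunoproteasome genes spread widely within TLR9KO, from 148 to 389 RPKM for Psmb8.

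The ATPases of the base, which unfold substrates, had 4 of 6 genes higher in STAT3KO than in WT (Psmc1, Psmc2, Psmc3 and Psmc6) and 1 of 6 in TLR9KO (Psmc6). The shares of all genes tested were 29.2% and 20.0%, so the TLR9KO count was near its share. Psmc6 was 13.98, 17.3 and 14.6 RPKM in WT, 25.8, 28.1, 31.2 and 26.7 RPKM in TLR9KO and 31.7, 27.5, 31.1 and 30.4 RPKM in STAT3KO. All knockout libraries were well above WT and the knockouts overlapped each other. On the log2(RPKM + 1) scale of the deposited values, its rise of 0.94 ± 0.10 in STAT3KO (limma adjusted p = 4.91e-05) was the largest of the 35 members. So was its rise of 0.83 ± 0.10 in TLR9KO (adjusted p = 0.00031). As a share of the WT mean, Psmc3ip rose further in STAT3KO, to 252.6% against 197.6% for Psmc6. With GC content and length removed, Psmc6 was at 0.45 in STAT3KO, below Psma2 at 0.52. In TLR9KO it was then at 0.05 and not called. 

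Psmc1, the ATPase whose tail opens the gate of the alpha ring in yeast, was 51.1, 52.5 and 47.3 RPKM in WT, 44.3, 50.5, 47.04 and 43.7 RPKM in TLR9KO and 73.3, 83.6, 72.8 and 71.97 RPKM in STAT3KO. The STAT3KO libraries stood apart from all others, and WT and TLR9KO overlapped. STAT3KO was higher than WT by 0.57 ± 0.08 (limma adjusted p = 0.000395) and higher than TLR9KO by 0.69 ± 0.08 (adjusted p = 0.000295), and TLR9KO differed from WT by -0.11 ± 0.08 (adjusted p = 0.324). Psmc3 was 77.3, 74.4 and 71.4 RPKM in WT, 69.6, 80.9, 88.7 and 78.5 RPKM in TLR9KO and 94.5, 99.8, 99.6 and 92.9 RPKM in STAT3KO. Its STAT3KO libraries were the highest as well, by 0.37 ± 0.09 over WT (adjusted p = 0.00537) and by 0.28 ± 0.08 over TLR9KO (adjusted p = 0.0276). The second call was lost in 6 of 11 fits that left out 1 library. Psmc2, at 52.5 RPKM in WT and 65.8 RPKM in STAT3KO, was higher by 0.32 (adjusted p = 0.0164), and lost its call without WT replicate 3. Psmc4 and Psmc5 were not called in any comparison of the deposited values.

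The other base subunits receive ubiquitinated substrates and the shuttle proteins that carry them. Psmd2, the docking scaffold for ubiquitin-like domains, was 115, 102 and 113 RPKM in WT, 93.7, 94.3, 86.03 and 88.1 RPKM in TLR9KO and 95.9, 95.01, 90.7 and 91.2 RPKM in STAT3KO. Every WT library was above every knockout library. The log2 difference from WT was -0.24 ± 0.07 in STAT3KO (limma adjusted p = 0.0229) and -0.28 ± 0.07 in TLR9KO (adjusted p = 0.0155). Both calls were lost without WT replicate 1 or without WT replicate 3, and the first also without STAT3KO replicate 3 or 4. In a fit with the replicate number as a block, both calls were lost too. Psmd4, a ubiquitin receptor, was higher in STAT3KO than in TLR9KO by 0.26 ± 0.08 (adjusted p = 0.0436), a call lost in 8 of 11 fits that left out 1 library, and Psmd1 was called in no comparison.

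The lid, which removes ubiquitin chains, had 5 of 8 genes higher and 1 lower in STAT3KO, and 3 higher and 1 lower in TLR9KO. Of all genes tested, 29.2% were higher and 14.8% lower in STAT3KO, and 20.0% and 10.6% in TLR9KO. The lower counts of the lid were near these shares. Psmd14, the metalloprotease that cuts off the chain, was 19.6, 23.6 and 19.5 RPKM in WT, 33.5, 40.2, 41.9 and 35.4 RPKM in TLR9KO and 39.3, 35.1, 39.3 and 37.2 RPKM in STAT3KO. Its knockout libraries were all above WT and overlapped each other, with differences of 0.83 ± 0.10 (limma adjusted p = 0.00013) and 0.82 ± 0.10 (adjusted p = 0.000423). Psmd12, a scaffold subunit, was 22.7, 22.04 and 21.1 RPKM in WT, 31.6, 33.1, 34.3 and 29.8 RPKM in TLR9KO and 38.8, 34.5, 35.04 and 37.2 RPKM in STAT3KO. The 3 groups did not overlap. Psmd12 was higher by 0.70 ± 0.08 in STAT3KO (adjusted p = 6.56e-05) and by 0.53 ± 0.08 in TLR9KO (adjusted p = 0.000856), and the difference of 0.17 ± 0.07 between the knockouts was not called (adjusted p = 0.0999).

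Psmd13, another scaffold subunit of the lid, went the other way. It was 72.3, 68.5 and 69.2 RPKM in WT, 50.5, 61.5, 60.2 and 55.6 RPKM in TLR9KO and 59.3, 59.4, 57.6 and 56.3 RPKM in STAT3KO. Again every WT library lay above all knockout libraries, with log2 differences of -0.26 ± 0.08 (limma adjusted p = 0.0204) and -0.30 ± 0.08 (adjusted p = 0.0166). Both calls were lost without WT replicate 1, the first also without STAT3KO replicate 4. They were lost as well with the replicate number as a block. Of the remaining lid genes, Psmd6 was higher in STAT3KO by 0.43 (adjusted p = 0.00446) and in TLR9KO by 0.35 (adjusted p = 0.0204), and Psmd7 and Psmd11 in STAT3KO by 0.22 and 0.21 (adjusted p = 0.0451 and 0.0427). Psmd3 was higher in STAT3KO than in TLR9KO by 0.30 (adjusted p = 0.0353), and Psmd8 was called in no comparison. With 1 library left out, the call of Psmd7 in STAT3KO was lost in 8 of 11 fits and that of Psmd11 in 7, that of Psmd6 in TLR9KO without WT replicate 1 or 3 or TLR9KO replicate 2, and that of Psmd3 in 7 of 11 fits.

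Of the 3 chaperones that help to assemble the base, Psmd9 and Psmd10 were higher in STAT3KO and Psmd10 in TLR9KO. Psmd10, known as the oncoprotein gankyrin, was 7.13, 9.09 and 8.26 RPKM in WT, 11.3, 12.8, 14.7 and 12.6 RPKM in TLR9KO and 13.5, 10.9, 13.7 and 13.4 RPKM in STAT3KO. All knockout libraries exceeded WT, by 0.60 ± 0.11 (limma adjusted p = 0.00168) and 0.60 ± 0.11 (adjusted p = 0.00313). Psmd9 was 8.60, 7.54 and 7.91 RPKM in WT, 8.54, 7.97, 9.35 and 7.89 RPKM in TLR9KO and 10.3, 11.3, 10.2 and 9.99 RPKM in STAT3KO. Its STAT3KO libraries stood above the others, by 0.35 ± 0.08 over WT (adjusted p = 0.006) and by 0.28 ± 0.08 over TLR9KO (adjusted p = 0.0229). The call against TLR9KO was lost in 4 of 11 fits that left out 1 library. Psmd5, the third chaperone, was called in no comparison.

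Psmc3ip was 1.2, 0.97 and 0.82 RPKM in WT, 1.10, 1.65, 1.86 and 1.85 RPKM in TLR9KO and 2.44, 3.12, 2.07 and 2.44 RPKM in STAT3KO. The STAT3KO libraries were the highest, and WT replicate 1 lay above TLR9KO replicate 1. The difference was 0.81 ± 0.14 against WT (limma adjusted p = 0.000888) and 0.43 ± 0.13 against TLR9KO (adjusted p = 0.0324), on a log2(RPKM + 1) scale that understates changes at such low levels. The second call was lost in 5 of 11 fits that left out 1 library. Psmc3ip lies on chromosome 11 near the deleted Stat3 gene, with 6 protein-coding genes between them in the RefSeq order. Among those in between, Atp6v0a1, a subunit of the vacuolar proton pump, was lower in STAT3KO than in WT, with a log2 difference of -0.78 ± 0.19 (adjusted p = 0.00604), Mlx, a transcription factor, was higher at 0.20 ± 0.07 (adjusted p = 0.0442), and Naglu and Coasy were not called. With GC content and length removed, Atp6v0a1 and Psmc3ip were still called and Mlx was not (adjusted p = 0.713), and Mlx also lost its call in 7 of 11 fits that left out 1 library.

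**Figure D3:**
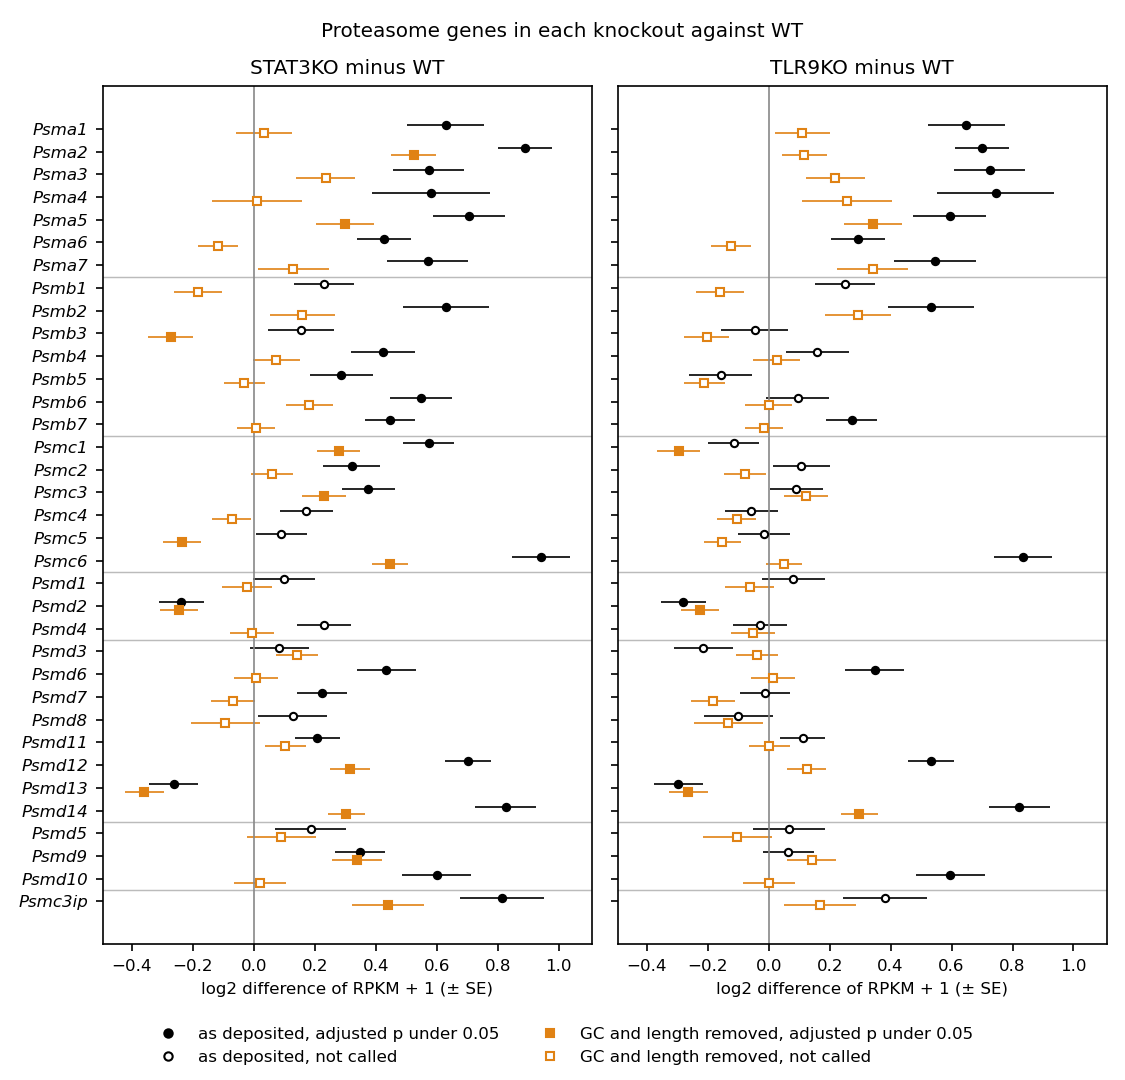
Log2 difference of RPKM + 1 (± SE) of each member in STAT3KO (left) and TLR9KO (right) against WT, from the values as deposited (black circles) and after removal of GC content and length (orange squares), filled where limma's adjusted p is under 0.05. Most black circles in the alpha ring lie above 0.4, the orange squares lie lower there, with Psma6 below 0 in both panels, and Psmd2 and Psmd13 are filled below 0 in both colours and panels.

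In the deposited values the gap between the particles was wider in both knockouts than in WT. Once the GC content and length of the transcripts were removed, the gap differed from WT by 0.11 in TLR9KO and by -0.0043 in STAT3KO. As deposited, the mean log2(RPKM + 1) of the core particle genes was 6.11 ± 0.02 (SD, n = 3) in WT, 6.49 ± 0.19 (n = 4) in TLR9KO and 6.61 ± 0.04 (n = 4) in STAT3KO. For the regulatory particle it was 5.12 ± 0.03, 5.26 ± 0.07 and 5.45 ± 0.03. The gap between the particles was 0.93, 1.02 and 1.01 in the WT libraries, 1.07, 1.21, 1.40 and 1.24 in TLR9KO and 1.11, 1.19, 1.21 and 1.15 in STAT3KO. No WT library overlapped with a knockout library. With GC content and length removed, the gap was 1.047 to 1.129 in WT, 1.08 to 1.32 in TLR9KO and 1.04 to 1.16 in STAT3KO, and both knockouts overlapped WT. In the deposited values the pooled SD of the gap between libraries was 0.09. There the mean gap was larger than in WT by 0.24 in TLR9KO and by 0.18 in STAT3KO. Without TLR9KO replicate 3 the first of these values was 0.19. Without Psmc3ip the gap was larger by 0.26 in TLR9KO and by 0.20 in STAT3KO. The gap of STAT3KO minus that of TLR9KO was -0.06 in the deposited values and -0.11 with GC content and length removed. The libraries of the knockouts overlapped in both cases.

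Transcript length and GC content moved with these differences. The core particle transcripts had a median length of 1162.5 bases and the regulatory particle transcripts of 1636 bases, against 2923 bases over all genes tested, with median GC contents of 48.9%, 49.7% and 50.4%. Across all genes tested, the shortest quintile, of 67 to 1629 bases, had a median log2 difference of 0.37 in STAT3KO and 0.18 in TLR9KO, and it held 11 of the 14 core genes and 10 of the 21 regulatory genes. The longest quintile had medians of -0.09 and -0.04 and held 0 members. The quintile of lowest GC content had medians of 0.28 in STAT3KO and 0.38 in TLR9KO, and the quintile of highest GC content -0.03 and -0.18. Over the 35 members, the Spearman correlation of the log2 difference with GC content was -0.56 in STAT3KO and -0.76 in TLR9KO, against -0.23 and -0.55 over the 10429 genes with a known sequence. The members with the largest rises were among the poorest in GC, such as Psmc6 at 36.97% and Psma2 at 39.4%. The genes of one library share its RNA quality and sequencing, so these correlations are descriptions.

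**Figure D4:**
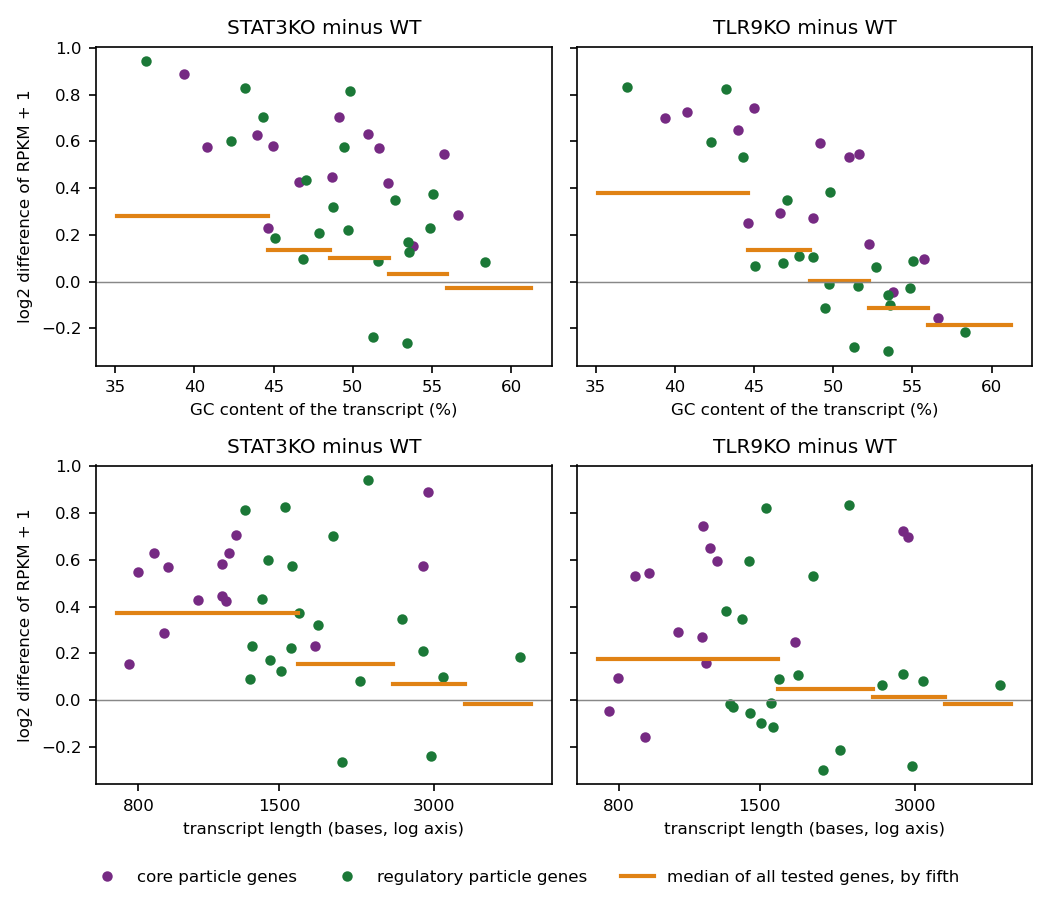
Log2 difference of each member against the GC content (top) and length (bottom, log axis) of its transcript, in STAT3KO (left) and TLR9KO (right) against WT; orange bars are medians of all tested genes by quintile, drawn over the range of the members. The medians fall from 0.28 to -0.03 (STAT3KO) and from 0.38 to -0.18 (TLR9KO) over the quintiles of GC content, and Psmc6, the leftmost point in the top panels, lies highest.

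After removal of the smooth dependence of each library on GC content and length, fewer members were called in each comparison. A natural spline of each property was used, fitted on the deviations of each library from the gene means. In STAT3KO against WT, 9 members were higher and 4 lower, where 20.4% of all genes were higher and 18.0% lower (38.5% in either direction). Of the 12 core genes that had been higher, 2 remained, Psma2 at 0.52 ± 0.07 (limma adjusted p = 0.000564) and Psma5 at 0.30 ± 0.10 (adjusted p = 0.0293), and Psmb3 was called lower at -0.27 ± 0.07 (adjusted p = 0.0143). Of the 12 regulatory genes that had been higher, 7 remained: Psmc1, Psmc3, Psmc3ip, Psmc6, Psmd9, Psmd12 and Psmd14, with log2 differences from 0.23 (Psmc3) to 0.45 (Psmc6). Psmd2 and Psmd13 remained lower, at -0.25 and -0.36, and Psmc5 was added at -0.24. Psma6 and Psmd7, both higher in the deposited values, turned to -0.12 and -0.07 and were not called. None of the 3 catalytic genes was called, with differences of -0.03 for Psmb5, 0.18 for Psmb6 and 0.01 for Psmb7. 

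In TLR9KO against WT, 2 members were higher and 3 lower with the same correction, where 8.37% of all genes were higher and 6.38% lower (14.7% in either direction). Psma5 at 0.34 ± 0.10 (limma adjusted p = 0.0367) and Psmd14 at 0.30 ± 0.06 (adjusted p = 0.0132) remained of the 14 that had been higher. Psmd2 and Psmd13 remained lower, at -0.23 and -0.26, and Psmc1 was added at -0.29 (adjusted p = 0.0219). Psma2 fell to 0.12 (limma adjusted p = 0.318) and Psmc6 to 0.05 (adjusted p = 0.598), and neither was called. Psma6 turned to -0.12 and Psmb7 to -0.02, neither called. In STAT3KO against TLR9KO, 4 members were higher and 0 lower, where 9.78% of all genes were higher and 9.67% lower (19.4% in either direction). Psmc1 remained, at 0.57 ± 0.07 (adjusted p = 0.000367), and Psma2, Psmc6 and Psmd12 were added at 0.41, 0.40 and 0.19. With length alone removed, 10 members were higher and 4 lower than WT in STAT3KO, and 9 higher and 7 lower in TLR9KO. With GC content alone removed, 20 were higher and 2 lower in STAT3KO, and 5 higher and 1 lower in TLR9KO. The shares of all genes in these fits are not given here, so these counts show only how the calls depend on the correction. The gap between the particles differed from WT by -0.0043 in STAT3KO and by 0.11 in TLR9KO with both removed. What gave rise to the dependence on GC content and length was not tested.

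**Figure D5:**
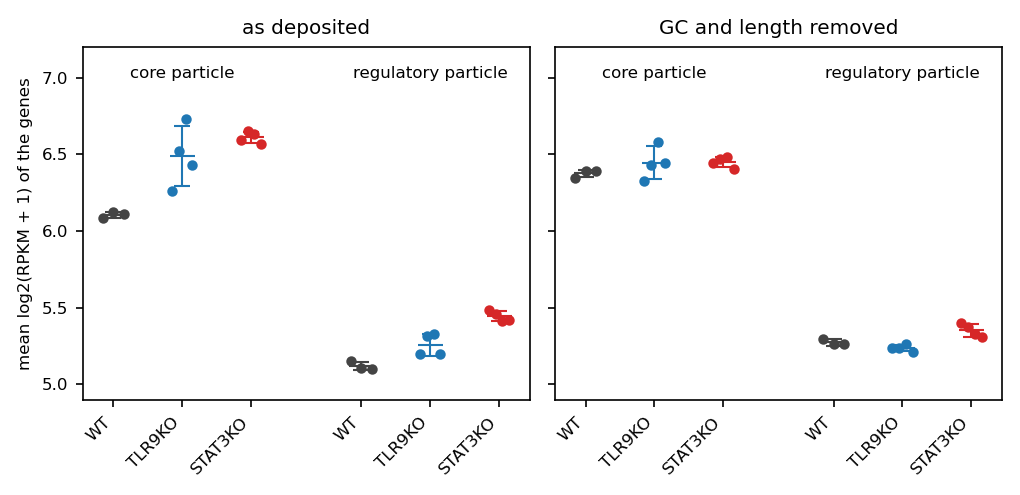
Mean log2(RPKM + 1) of the 14 core and 21 regulatory particle genes in each library, with the group mean and SD, from the values as deposited (left) and after removal of GC content and length (right). The core means of WT, TLR9KO and STAT3KO are 6.11, 6.49 and 6.61 on the left and 6.38, 6.45 and 6.45 on the right.

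The other genes of the pathway were counted in lists with 37 genes in the files. In STAT3KO against WT 13 were higher and 4 lower, in TLR9KO against WT 10 were higher and 4 lower, and in STAT3KO against TLR9KO 2 were higher and 4 lower. Over all genes tested, the shares were 29.2% and 14.8%, 20.0% and 10.6%, and 13.4% and 9.46% in the same order. The median log2 differences of the 37 genes were 0.12, 0.20 and 0.10, against 0.09, 0.04 and 0.06 over all genes. Of the 5 factors that assemble the core particle, 4 were higher in STAT3KO and 2 in TLR9KO. Psmg4 was 9.67, 9.74 and 13.9 RPKM in WT, 15.3, 18.8, 26.2 and 20.1 RPKM in TLR9KO and 25.5, 30.1, 28.5 and 24.5 RPKM in STAT3KO. Its libraries rose from WT to both knockouts without overlap, by 1.23 ± 0.17 in STAT3KO (limma adjusted p = 0.00029) and 0.79 ± 0.17 in TLR9KO (adjusted p = 0.00577). Both calls held after the removal of GC content and length, at 0.79 and 0.63. Pomp, Psmg1 and Psmg3 were higher in STAT3KO by 0.63, 0.37 and 0.51, and were not called with that correction, at 0.32, -0.04 and 0.18. Psmg2 was higher in TLR9KO by 0.58, and Psmg3 was higher in STAT3KO than in TLR9KO by 0.31, neither called with it, and the Psmg3 call was also lost in 7 of 11 fits that left out 1 library.

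Among the 6 partners of the regulatory particle, 3 were higher in STAT3KO and 3 in TLR9KO: Shfm1, Uchl5 and Txnl1 in each case. Shfm1, the smallest subunit of the lid, which the name rule does not find, was 130.2, 128 and 127 RPKM in WT, 190.2, 216, 222 and 199.7 RPKM in TLR9KO and 282, 282, 296 and 271 RPKM in STAT3KO. The 3 groups did not overlap. It was higher by 1.13 ± 0.08 in STAT3KO (limma adjusted p = 1.09e-05), by 0.68 ± 0.08 in TLR9KO (adjusted p = 0.000337) and by 0.45 ± 0.07 in STAT3KO over TLR9KO (adjusted p = 0.0023); with the correction the values were 0.45, -0.19 and 0.64, so the difference of TLR9KO from WT changed sign and was not called. The deubiquitinase Uchl5 was higher by 0.62 and 0.46, and Txnl1 by 0.35 and 0.34, and none of these was called with the correction, at 0.08 and -0.25 for Uchl5 and 0.08 and -0.17 for Txnl1, with the sign turned in TLR9KO. Usp14, another deubiquitinase of the proteasome, was lower in STAT3KO than in TLR9KO, at -0.44 ± 0.11 (adjusted p = 0.0133). With the correction the value was -0.20 and was not called (adjusted p = 0.153).

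Of the 5 activators and inhibitors, 1 was higher and 1 lower in STAT3KO, and 1 was lower in TLR9KO. Among all genes tested, 29.2% were higher and 14.8% lower in STAT3KO, and 10.6% were lower in TLR9KO, so these counts were near those shares. Psme2, a subunit of the activator induced by interferon gamma, was 62.8, 88.4 and 84.5 RPKM in WT, 73.3, 124, 181 and 116 RPKM in TLR9KO and 129, 156, 180.3 and 126 RPKM in STAT3KO. STAT3KO lay above WT, and the other pairs of groups overlapped. Its difference of 0.90 ± 0.25 in STAT3KO (limma adjusted p = 0.0143) was not called with the correction (adjusted p = 0.111). Psme3, which encodes a nuclear activator, was lower in STAT3KO, at -0.37 ± 0.08 (adjusted p = 0.00383), and in TLR9KO, at -0.25 ± 0.08 (adjusted p = 0.0383), and both calls held with the correction. The TLR9KO call of Psme3 was lost in 7 of 11 fits that left out 1 library, and the STAT3KO call of Psme2 without WT replicate 1.

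Of the 5 genes that control the expression or the nuclear import of the proteasome, 0 were called in STAT3KO against WT in limma, and 0 at an unadjusted p under 0.05. With GC content and length removed, the nuclear import factor Akirin2 was lower there, at -0.50 ± 0.08 (adjusted p = 0.00086). Nfe2l1, the factor known to raise proteasome genes when the protease is inhibited, was 52.9, 54.8 and 56.6 RPKM in WT, 48.4, 48.6, 40.6 and 43.3 RPKM in TLR9KO and 55.3, 50.7, 50.4 and 55.1 RPKM in STAT3KO. TLR9KO was the lowest group, at -0.27 ± 0.08 against WT (adjusted p = 0.029), a call lost with the correction and in 5 of 11 fits that left out 1 library. Ngly1, which processes that factor, was higher in TLR9KO by 0.46, and it and Akirin2 were lower in STAT3KO than in TLR9KO, at -0.31 and -0.28. With the correction the Ngly1 differences were 0.06 and -0.19 and were not called, and the second was also lost in 4 of 11 fits that left out 1 library. The Akirin2 call held with the correction, at -0.38, and was lost without TLR9KO replicate 2 or STAT3KO replicate 4.

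Among 13 ubiquitin and substrate handling genes, 5 were higher and 3 lower in STAT3KO, and 4 higher and 2 lower in TLR9KO. The shares of all genes tested were 29.2% and 14.8% in STAT3KO, and 20.0% and 10.6% in TLR9KO. Uba1, the main ubiquitin-activating enzyme, was 215, 187 and 206 RPKM in WT, 128, 140.3, 119 and 131 RPKM in TLR9KO and 129, 133, 128 and 133 RPKM in STAT3KO. Every knockout library was well below WT, at -0.63 ± 0.08 in STAT3KO (limma adjusted p = 0.00021) and -0.64 ± 0.08 in TLR9KO (adjusted p = 0.000552), and both calls held with the correction, at -0.54 and -0.49. The cofactors of the segregase Vcp went opposite ways in each knockout: Nploc4 was lower, at -0.47 in STAT3KO and -0.35 in TLR9KO, and Ufd1l was higher by 0.49 and 0.41. Rps27a, a fusion of ubiquitin and a ribosomal protein, was higher by 0.87 and 0.54. With the correction the STAT3KO calls of these 3 genes held, at -0.35, 0.21 and 0.34, and their TLR9KO calls did not, at -0.16, 0.15 and 0.22. The TLR9KO call of Nploc4 was lost too without WT replicate 1 or 3. The shuttle factor Rad23b was lower in STAT3KO than in WT, at -0.35 (limma adjusted p = 0.0074). That call held with the correction, at -0.44, and in each fit that left out 1 library. Rad23b was also lower in STAT3KO than in TLR9KO, at -0.26. This second call was lost with the correction (adjusted p = 0.0671) and in 6 of 11 fits that left out 1 library.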

How the data were processed

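The deposited files hold 1 table of RPKM values per library, made by the authors per the file headers, except for TLR9KO replicate 4, whose header names no unit and whose values have the same genes and range. CASAVA 1.7, TopHat 1.3.1, Bowtie 0.12.7 and Partek with mouse build mm9 are named, per the submitters' processing notes. The annotation, the counting of reads that map to several places and the reads that the RPKM scale counts as mapped were not given in the sources used here, and no depth or counting interval could be had.

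Genes that averaged 1 RPKM or more across the 11 libraries were tested with limma 3.58.1 in R 4.3.3 (moderated with a trend) on log2(RPKM + 1), with the 3 groups in 1 fit, two-sided, with Benjamini-Hochberg adjustment over 10557 genes at 0.05. A fold change on this scale understates the change of low genes. The procedure was run on simulated data with independent noise and a linear GC trend. That setting differs from these libraries, and no result here rests on it. GC content and length came from the longest GENCODE M21 transcript that matches RefSeq, of build GRCm38 and not the mm9 of the files, with no coordinates used, for 10429 genes. Each library's deviations from the gene means were fitted on natural splines of GC content and log2 length, with 5 degrees of freedom each, and the fit was subtracted. Alternatives were a pseudocount of 0.1, no filter, median-ratio scaling, that correction, the replicate number as a block, and each library left out. GC content alone, length alone and the lists without Psmc3ip or the chaperones were added after seeing the data.

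Members are counted by role. Those given in every library are the 3 catalytic genes and, in each particle, comparison and direction, the 4 called genes with the smallest adjusted p. From the other lists, up to 4 called genes per comparison are given by smallest p. Further genes were chosen after their values were seen. The members and lists were chosen with earlier results of these data known. Python 3.11.15 with pandas 2.3.3 and matplotlib 3.10.9 was used for tables and figures.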

Additional observations from a re-analysis of the deposited data

Results flagged for a closer look

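Of 70 groups of 4 libraries, 1 for each member in each knockout, 2 held a library far from the other 3 by Dixon's criterion, which chance gives in about 1 in 20 groups. Psmc1 was 83.59 RPKM in STAT3KO replicate 2 and between 71.97 and 73.33 RPKM in the other 3 STAT3KO libraries. Psmd10 was 10.86 RPKM in the same library and between 13.44 and 13.73 RPKM in the others. Both genes were called higher than WT in STAT3KO in each fit that left out 1 library.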

How the results depend on the processing

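Of the members, 24 were higher and 2 lower in STAT3KO than in WT, 14 and 2 in TLR9KO, and 9 and 0 in STAT3KO against TLR9KO. With GC content and length removed, 9 were higher and 4 lower in STAT3KO, and 2 higher and 3 lower in TLR9KO. In STAT3KO against TLR9KO 4 were then higher, and the gap between the particles differed from WT by -0.0043 and 0.1072. With length alone removed, 10 were higher and 4 lower in STAT3KO, 9 higher and 7 lower in TLR9KO, 3 higher in STAT3KO against TLR9KO, and the gap differed by 0.038 in STAT3KO. With GC content alone removed, 5 were higher and 1 lower in TLR9KO. Median-ratio scaling left 3 higher in STAT3KO against TLR9KO. The shares of all genes with GC content or length alone removed, with the block, or with 1 library left out are not given here.

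Whether the replicate numbers pair the samples could not be decided from these data. The correlation of the deviations of same-numbered libraries was -0.291 to 0.492, and -0.608 to 0.533 for the other pairs, ranges that overlap. With the replicate number as a block, 0 members were lower in either knockout than in WT, as Psmd2 and Psmd13 lost their calls (adjusted p = 0.0692 and 0.0652 in STAT3KO, 0.0537 and 0.0579 in TLR9KO), 21 and 13 were higher, and 3 were higher in STAT3KO against TLR9KO. With the block and GC content and length removed, the counts were 8 higher and 4 lower in STAT3KO, 2 higher and 1 lower in TLR9KO and 3 higher in STAT3KO against TLR9KO, and the gaps differed by -0.0043 and 0.1072.

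Leaving out 1 library gave 20 to 25 higher and 0 to 2 lower in STAT3KO, 9 to 16 higher and 0 to 4 lower in TLR9KO, and 3 to 11 higher and 0 lower in STAT3KO against TLR9KO. The gap then differed by 0.1538 to 0.2 in STAT3KO, 0.1865 to 0.2977 in TLR9KO and -0.1174 to -0.0062 between the knockouts. The lower count in STAT3KO was 0 without WT replicate 1 or STAT3KO replicate 4, and 1 without WT replicate 3 or STAT3KO replicate 3. In TLR9KO it was 0 without WT replicate 1, 1 without WT replicate 3 and 4 without WT replicate 2.

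With GC content and length removed, Psma6 turned to -0.12 in STAT3KO and -0.12 in TLR9KO, and Psmd7 to -0.07 in STAT3KO. Psmb5 in STAT3KO against WT was -0.0309 with GC content and length removed, -0.0277 with the block as well and -0.1447 with length alone removed, and in TLR9KO against WT it was 0.0079 with GC content alone removed. Psmb6 in TLR9KO was -0.1415 with length alone removed. Psmb7 in TLR9KO was -0.0152 with GC content and length removed and -0.0061 with the block as well, and -0.0089 in STAT3KO against TLR9KO with length alone removed. Psmd10 in TLR9KO was -0.0181 with the block and GC content and length removed. The cause of these changes was not tested. The files give no read totals, so what depth limits could not be measured.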
